A study of Mus musculus with 4 samples.

Results

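The genes studied here are 10 enzymes and cofactors that write, keep and remove DNA methylation, and they were chosen by symbol: the methyltransferases *Dnmt1*, *Dnmt3a* and *Dnmt3b*, their cofactors *Dnmt3l*, *Uhrf1* and *Uhrf2*, the dioxygenases *Tet1*, *Tet2* and *Tet3*, and the glycosylase *Tdg*. All 10 were found among the 48526 gene identifiers of the count files, and all 10 passed the filter on low counts. RNA-seq counts were available for 4 libraries, 2 biological replicates of wild-type (WT) R1 ESCs, a mouse embryonic stem cell line, and 2 of clone 2 of R1 ESCs in which *Zfp296* was knocked out with CRISPR/Cas9 (KO2). *Zfp296* encodes a zinc finger protein that binds the NuRD chromatin remodelling complex. The knockout group is a single monoclonal line made after transfection of Cas9 with a guide RNA against the first exon and selection with puromycin. An effect of *Zfp296* and any other difference between this clone and the WT cells can therefore not be told apart. All cells were kept in serum and LIF with inhibitors of MEK and GSK3, according to the methods, and both groups shared this medium.

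DNA methylation places a methyl group on cytosine, mostly in CpG dinucleotides. DNMT3A and DNMT3B add it to unmethylated DNA, and DNMT3L, which has no catalytic activity of its own, binds and stimulates both. DNMT1 copies the mark onto the new strand after replication and is guided there by UHRF1. TET proteins oxidise methylated cytosine, and TDG removes the oxidised products, after which base excision repair restores cytosine. Inhibition of MEK and GSK3 is known to lower the expression of the de novo methyltransferases and the methylation of the genome in mouse ESCs.

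The targeted gene did not fall in the knockout libraries. Each WT library held 31 reads on *Zfp296*, and the libraries labelled KO2 held 416 and 282. Scaled by edgeR's TMM factors to counts per 1e6 (CPM), this was 11.6 and 7.33 against 52.8 and 37.7. The gene was therefore higher in the libraries labelled KO2 (log2 fold change 2.31 ± 0.28, standard error, SE, edgeR adjusted p = 4.55e-05). A small insertion or deletion in an exon can leave a transcript in place, so a count over the whole gene does not check the edit. This concerns only whether a transcript remains, and the cause of the higher level was not tested. The group names below stand for the labels only. The groups also differed in Y-linked genes. Of these, *Eif2s3y*, *Ddx3y* and *Uty* had at most 1 count in a WT library and 723 to 2197 counts in a library labelled KO2. Both groups are given as the same line, R1, and which of them departs from it in these genes was not tested. The sum over genes was 2829914 and 4334499 for WT, and 7470907 and 7437294 for KO2, so both WT libraries were the shallower ones.

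The ESC markers fixed for this work were all expressed, with a summed level of 6125 and 6092 CPM in WT and 5860 and 5761 CPM in KO2 over 10 genes. Of these, *Sox2* alone passed the test, with lower values in KO2. Markers of primitive endoderm (3.07 to 10.4 CPM summed over 7 genes) and trophoblast (4.47 to 11.4 CPM over 7 genes) were low throughout. So were those of fibroblasts (0.936 to 3.54 CPM over 7 genes) and 2-cell-like cells (1.86 to 3.78 CPM over 4 genes). The filter on low counts left 3 primitive endoderm and 1 trophoblast marker to test, and none of these passed. It left 0 of the fibroblast and 2-cell-like markers, so a change of these was not tested. The highest of these markers was *Eomes*, of the trophoblast list, with 6.85 CPM in WT replicate 2 and 6.68 CPM in KO2 replicate 2. *Plac1*, *Postn*, *Dcn* and *Lum* had 0 counts throughout. Of the 5 primed epiblast markers *Fgf5* and *Lef1* had 0 counts in every library, and the summed level was 48.4 to 64.4 CPM, mostly from *Otx2*. The neural markers summed to 146 and 142 CPM in WT and 192 and 185 CPM in KO2 over 5 genes. Of these, *Nes* and *Tubb3* were tested, at log2 fold changes of 0.35 and 0.42, and did not pass. For both, the KO2 libraries lay above both WT libraries, which held for 25.4% of all tested genes. *Olig2* had 0 counts. In such bulk libraries, fewer cells with a transcript and less of it per cell cannot be told apart.

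Of the 10 genes, *Dnmt3l* was lower in KO2 and no other passed the test. With edgeR and Benjamini-Hochberg adjustment over all 12883 tested genes, 1 of the 10 genes had an adjusted p under 0.05, compared to 5.64% of all tested genes in either direction of which 2.61% were higher and 3.04% lower in KO2. The median log2 fold change of the 10 genes was 0.12, beside 0.01 for all tested genes. Both KO2 libraries lay beyond both WT libraries for 5 of the 10 genes, which is close to the 48.8% of all tested genes for which this held. *Dnmt3a*, *Dnmt3b* and *Tet2* lay above and *Dnmt1* and *Dnmt3l* below.

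**Figure D1:**
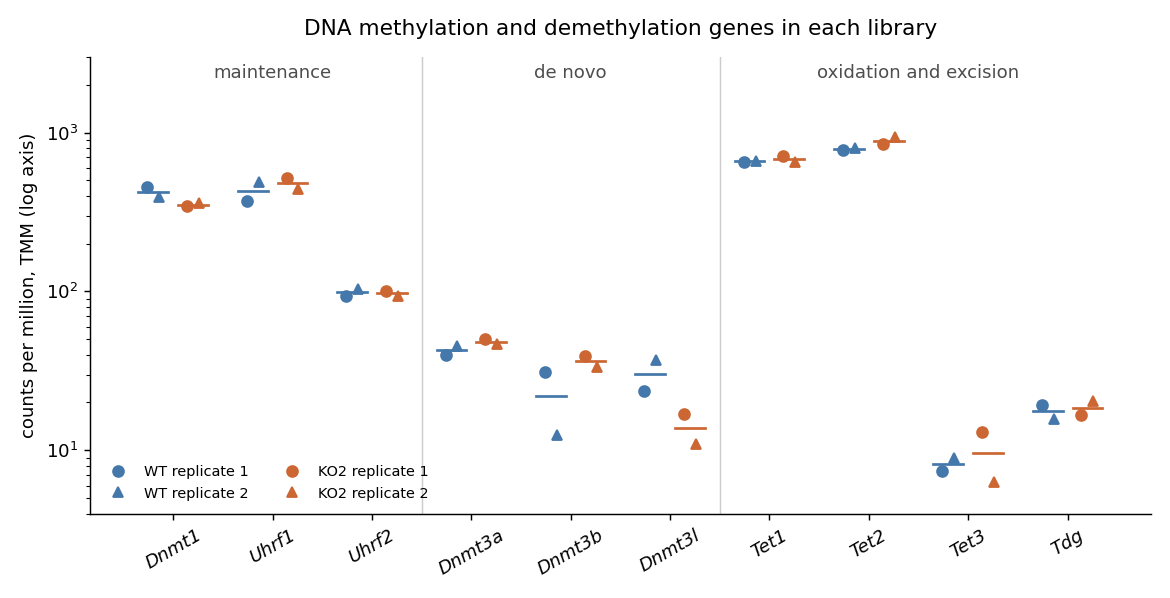
Level of the 10 genes in CPM (TMM, log axis) in each library, with WT in blue, KO2 in orange, circles for replicate 1, triangles for replicate 2 and a short line at each group mean. The *Dnmt3l* points of KO2 (16.9 and 11.0 CPM) lie below those of WT (23.5 and 36.9 CPM). Both KO2 points also lie below both WT points for *Dnmt1*, and above them for *Dnmt3a*, *Dnmt3b* and *Tet2*.

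The genes spanned a wide range of expression. Per kilobase of annotated exon (RPKM, CPM divided by the summed length of all exons), WT levels ran from 100.6 ± 19.3 for *Uhrf1*, 85.6 ± 1.15 for *Tet2* and 80.7 ± 7.86 for *Dnmt1* (SD, n = 2) over 44.9 ± 0.638 for *Tet1* and 11.5 ± 0.878 for *Uhrf2* to 10.1 ± 3.17 for *Dnmt3l*. Below these came *Dnmt3b* at 4.29 ± 2.60, *Tdg* at 3.28 ± 0.467, *Dnmt3a* at 2.57 ± 0.243 and *Tet3* at 0.741 ± 0.0973 RPKM (SD, n = 2). The maintenance genes *Dnmt1* and *Uhrf1* thus stood far above the de novo genes in both groups. The replicates of *Tet2* and *Dnmt1*, of *Uhrf2* and *Dnmt3l*, and of *Dnmt3b* and *Tdg* overlapped, so that their order in WT is not resolved. In KO2, the order was the same except that *Dnmt3l*, at 4.66 ± 1.40 RPKM, came after *Dnmt3b*, at 7.12 ± 0.816 RPKM (SD, n = 2), without overlap of the replicates. The annotation joins the exons of all isoforms, 16642 bases for *Dnmt3a*, so the per-length level of a gene that uses a short isoform is understated.

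*Dnmt3l* (ENSMUSG00000000730) lies on the plus strand at chr10:77504692-77526367 (mm9). The WT libraries held 63 and 156 reads on it and the KO2 libraries 133 and 82. Its level was 23.5 and 36.9 CPM in WT, against 16.9 and 11.0 CPM in KO2. Both KO2 libraries were below both WT libraries, although the gap between the closest pair was smaller than the difference between the WT replicates. The log2 fold change was -1.15 ± 0.28 SE (95% interval -1.74 to -0.55, edgeR adjusted p = 0.0223), or 0.452-fold with an interval of 0.299 to 0.683. This call rested on few counts and did not hold in all fits: the adjusted p was 0.285 without WT replicate 2, at a log2 fold change of -0.75, 0.0639 without KO2 replicate 2, at -0.89, and 0.066 with DESeq2, at -1.13. With every library thinned to the depth of the shallowest, it was 0.0796, at -0.94. The direction was the same in all 13 alternatives, and 7 of them kept the adjusted p under 0.05.

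The partners of DNMT3L did not fall with it. *Dnmt3a* (ENSMUSG00000020661, chr12:3806007-3914443, plus strand) had 39.9 and 45.6 CPM in WT and 49.96 and 46.7 CPM in KO2. The KO2 values were slightly above the WT values, with a log2 fold change of 0.17 (95% interval -0.20 to 0.54, adjusted p = 0.668, edgeR). *Dnmt3b* (ENSMUSG00000027478, chr2:153475186-153513466, plus strand) had 31.3 and 12.5 CPM in WT and 39.3 and 33.4 CPM in KO2, from 84, 53, 310 and 250 counts. WT replicate 2 was the low library for *Dnmt3b* and the high one for *Dnmt3l*. The log2 fold change of *Dnmt3b* was 0.81 (95% interval 0.20 to 1.43, adjusted p = 0.124, edgeR), where the interval is not adjusted for the number of genes. It was 1.54 without WT replicate 1 (adjusted p = 0.0162, edgeR) and 0.22 without WT replicate 2 (adjusted p = 0.659, edgeR), and the adjusted p was 0.0237 without KO2 replicate 2.

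To set *Dnmt3l* beside its partners independently of the scaling of the libraries, the ratio of their counts was taken within each library. For each count of *Dnmt3a* there were 0.589 and 0.808 counts of *Dnmt3l* in the WT libraries and 0.338 and 0.235 in the KO2 libraries. Relative to *Dnmt3b*, the counts of *Dnmt3l* were 0.75 and 2.94 in WT and 0.429 and 0.328 in KO2. Both ratios were lower in KO2 without overlap, with a log2 difference of -1.29 for *Dnmt3a* and -1.99 for *Dnmt3b*, or 0.408-fold and 0.252-fold. The replicate SD was 0.32 and 0.37 in WT and KO2 for the ratio to *Dnmt3a*, and 1.39 and 0.27 for the ratio to *Dnmt3b*. With 2 against 2 libraries, the exact permutation test (two-sided) gave p = 0.333 for both ratios before any adjustment, which is the smallest p it can give. The ratio to *Dnmt3b* depended on WT replicate 2, without which its log2 difference was -0.9995, and was -2.97 without WT replicate 1. The ratio of *Dnmt3a* to *Dnmt3b*, at 1.27 and 3.64 in WT and 1.27 and 1.40 in KO2, overlapped between the groups (exact permutation p = 0.667).

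**Figure D2:**
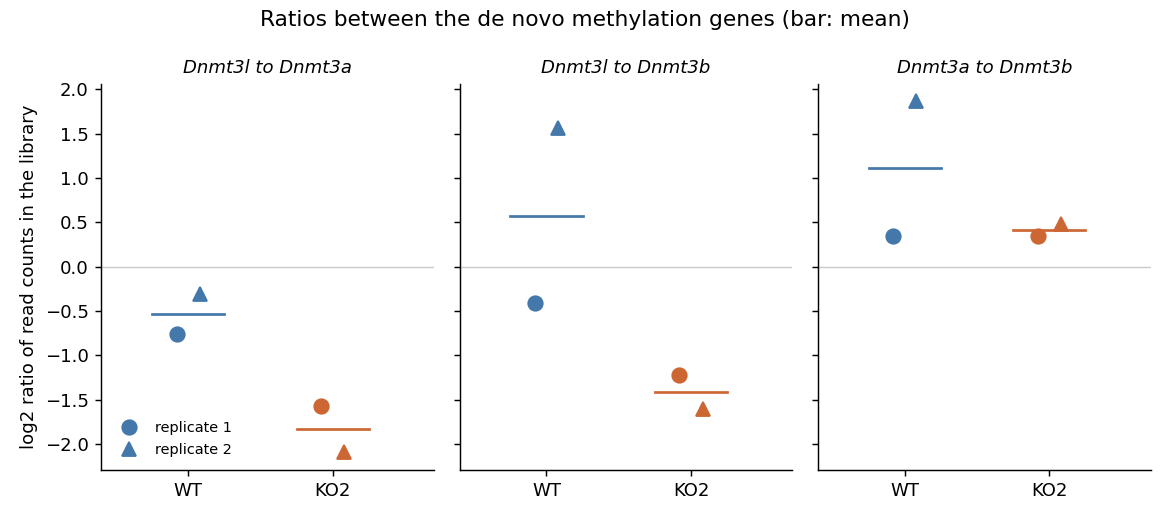
Log2 ratio of the read counts of each pair of de novo genes within each library, by group, with circles for replicate 1, triangles for replicate 2 and a line at the group mean. *Dnmt3l* to *Dnmt3a* falls from a mean of -0.54 in WT to -1.83 in KO2, and the WT replicates of both ratios to *Dnmt3b* lie far apart.

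The start regions of these 3 genes are shown because CpG dinucleotides are the substrate of the enzymes, and *Dnmt3l* differed from its partners in how many it holds. Each line gives the 250 bases before a RefSeq start site, 5′ to 3′ on the plus strand, with each CpG in capitals. All windows of *Dnmt3l* and *Dnmt3a* lie inside the mm9 gene positions given above, and that of *Dnmt3b* lies before its gene. RefSeq lists 3 starts for *Dnmt3l*, of which the first pair is shown, 3 for *Dnmt3a*, of which the internal one is shown, and 1 for *Dnmt3b*. The sequences come from RefSeq (GRCm38.p6) and each matched mm9 exactly and once, at chr10:77504782-77505031, chr10:77512337-77512586, chr12:3891494-3891743 and chr2:153474935-153475184.
Dnmt3l start 1: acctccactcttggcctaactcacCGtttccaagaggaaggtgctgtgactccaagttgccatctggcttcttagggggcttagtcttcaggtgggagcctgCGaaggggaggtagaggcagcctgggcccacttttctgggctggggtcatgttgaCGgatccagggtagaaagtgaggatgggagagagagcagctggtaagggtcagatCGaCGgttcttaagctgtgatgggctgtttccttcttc
Dnmt3l start 2: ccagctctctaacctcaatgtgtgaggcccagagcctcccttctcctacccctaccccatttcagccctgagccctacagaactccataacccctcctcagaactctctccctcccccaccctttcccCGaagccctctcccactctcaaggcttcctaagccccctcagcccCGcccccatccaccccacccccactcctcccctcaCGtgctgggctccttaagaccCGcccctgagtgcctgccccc
Dnmt3a start 3: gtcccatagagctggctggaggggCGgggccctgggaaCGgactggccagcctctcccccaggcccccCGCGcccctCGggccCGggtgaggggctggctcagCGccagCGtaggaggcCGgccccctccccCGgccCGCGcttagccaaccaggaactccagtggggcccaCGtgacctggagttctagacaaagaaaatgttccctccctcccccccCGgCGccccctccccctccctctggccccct
Dnmt3b start 1: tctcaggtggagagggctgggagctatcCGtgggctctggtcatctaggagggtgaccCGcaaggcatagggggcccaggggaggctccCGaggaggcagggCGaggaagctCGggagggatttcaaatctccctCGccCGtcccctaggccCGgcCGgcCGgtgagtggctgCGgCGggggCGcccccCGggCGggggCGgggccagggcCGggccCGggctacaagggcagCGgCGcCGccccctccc

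The *Dnmt3l* windows held 5 and 4 CpGs, and the one not shown held 3, beside a median of 6 over the 32851 windows of the same length for all genes. The windows of *Dnmt3a* held 38, 40 and 15 CpGs and that of *Dnmt3b* 21. The windows of *Dnmt1* held 2, 7 and 26 CpGs, so its poorest window held fewer than any of *Dnmt3l*. Among the other genes, the richest windows held 30 CpGs for *Uhrf1*, 23 for *Uhrf2*, 15 for *Tet1*, 51 for *Tet2*, 17 for *Tet3* and 19 for *Tdg*. By the richest window of each gene, *Dnmt3l* had the fewest CpGs of the 10 genes. The richest windows of *Dnmt1*, *Uhrf1* and *Tet1* also lie inside their annotated genes, so the windows compared differ in position. The GC box GGGCGG, searched on both strands and overlapping CpG, was found in 12 of the 17 windows of the 10 genes, compared to 32.7% of all windows, and among them in the second *Dnmt3l* window only of its 3. Counts per gene do not show which start was used, and no methylation was measured in these libraries.

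The genes around *Dnmt3l* were examined next. Of the 13 other annotated genes that lie at least in part within 250 kb of it, 8 were tested, and 2 of these passed the test, both with lower values in KO2, beside 5.64% called and 3.04% lower among all tested genes. The median log2 fold change of the 8 genes was 0.045. *Aire*, which encodes a regulator of self-antigen expression in the thymus, starts 1.66 kb downstream of the annotated start of *Dnmt3l* on the opposite strand. It was covered by 16 and 26 reads in WT against 11 and 4 in KO2. Its log2 fold change was -2.61 ± 0.65 SE (edgeR adjusted p = 0.0239), and the call was lost in 5 of its alternatives, with adjusted p of 0.0678 to 0.191. *Pfkl*, the liver-type phosphofructokinase of glycolysis, starts 31.9 kb upstream and was covered by 471 and 927 reads in WT against 911 and 735 in KO2. Its log2 fold change was -0.89 ± 0.14 SE (edgeR adjusted p = 0.000551), and the call was lost without the filter on low counts and with spike-in scaling. *Aire* and *Dnmt3l* share 67 bases of exon, 2.24% of those of *Dnmt3l*, and whether strand was used in counting is not given in the sources used here. Reads that fit more than a single gene are in a summary row with 2.08% to 4.06% of all rows' counts. How reads in the shared stretch were counted is therefore uncertain, and so is whether the values of these 2 genes are independent.

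**Figure D3:**
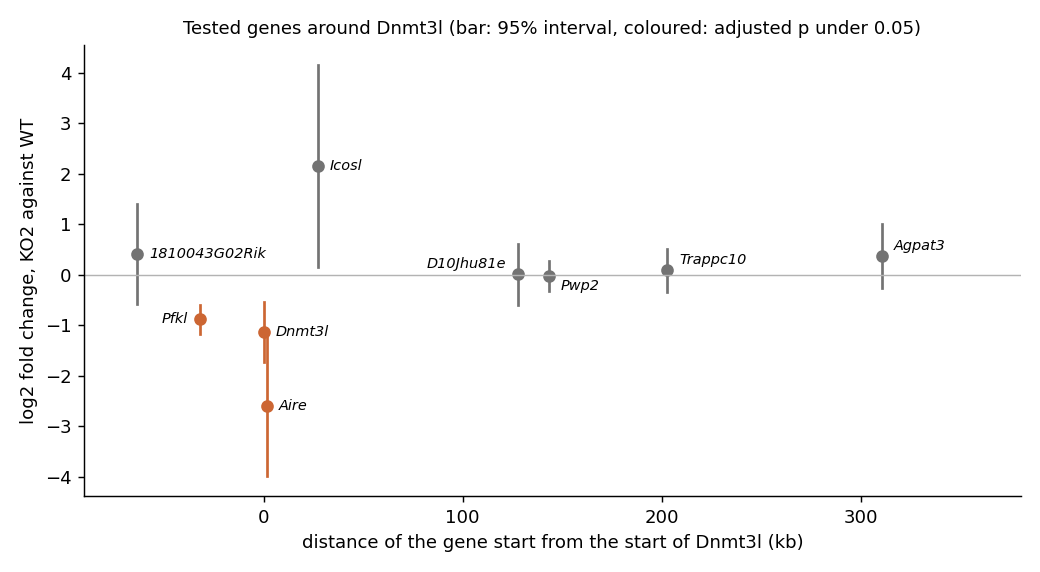
Log2 fold change of KO2 against WT with its 95% interval for *Dnmt3l* and the 8 tested genes around it, against the distance of each gene start from that of *Dnmt3l* in kb. Coloured points had an adjusted p under 0.05, namely *Pfkl*, *Dnmt3l* and *Aire*, and the farthest downstream gene, *Agpat3*, is at 0.37.

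Of all tested genes within 2-fold of its mean level, 3893 in number, the genes whose profile over the 4 libraries was most like that of *Dnmt3l* were *Gjc1*, *Dtx3*, *Hbegf*, *Bcl7a* and *Ankrd45*. Their root mean square difference from *Dnmt3l* in centred log2 CPM was 0.14 to 0.16. *Gjc1*, a connexin, had 45.5 and 65.0 CPM in WT and 29.4 and 24.6 CPM in KO2. The 5 genes were chosen for this likeness, so their order of libraries and their lower values in KO2 follow from the choice and are a description only.

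For the maintenance genes no change passed the test. *Dnmt1* (ENSMUSG00000004099, chr9:20711650-20757317, minus strand) had 454 and 396 CPM in WT and 344 and 361 CPM in KO2. Both KO2 values were below both WT values, and the log2 fold change was -0.27 ± 0.11 SE (95% interval -0.50 to -0.039, edgeR adjusted p = 0.178). It stayed negative in all 13 alternatives, from -0.37 to -0.16, and passed in none of them. *Uhrf1* (ENSMUSG00000001228, chr17:56442744-56462909, plus strand), which recognises hemimethylated DNA, had 370.1 and 487 CPM in WT and 515 and 442 CPM in KO2, and the groups overlapped. Its log2 fold change was 0.16 (95% interval -0.11 to 0.42, adjusted p = 0.548, edgeR). *Uhrf2* (ENSMUSG00000024817, chr19:30105003-30168212, plus strand), a relative of *Uhrf1* that does not replace it in maintenance, had 93.5 and 104 CPM in WT and 101 and 93.4 CPM in KO2. The groups overlapped again, with a log2 fold change of -0.03 (95% interval -0.32 to 0.26, adjusted p = 0.938, edgeR).

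On the demethylation side, the abundant *Tet1* and *Tet2* were measured most precisely. *Tet1* (ENSMUSG00000047146, chr10:62267318-62361866, minus strand) had 653 and 667 CPM in WT and 708 and 654 CPM in KO2. The values overlapped, and the interval ran from 0.891-fold to 1.20-fold (log2 fold change 0.046, edgeR adjusted p = 0.865). *Tet2* (ENSMUSG00000040943, chr3:133126643-133207354, minus strand) had 780.4 and 795 CPM in WT and 849 and 932 CPM in KO2. Both KO2 values were higher, with a log2 fold change of 0.18 (95% interval -0.034 to 0.39, adjusted p = 0.356, edgeR). *Tet3* (ENSMUSG00000034832, chr6:83312367-83391672, minus strand), the form known for acting in the zygote, was covered by 20 and 38 reads in WT against 103 and 47 in KO2. Its level was 7.45 and 8.98 CPM in WT, against 13.1 and 6.28 CPM in KO2, and the groups overlapped. Its interval was wide, from 0.621-fold to 2.18-fold (adjusted p = 0.844, edgeR). *Tdg* (ENSMUSG00000034674, chr10:82092573-82113544, plus strand) had 19.4 and 15.8 CPM in WT and 16.6 and 20.5 CPM in KO2. These values overlapped, with an interval from 0.710-fold to 1.60-fold (adjusted p = 0.901, edgeR). *Tdg* shares 367 bases of exon with *Glt8d2* on the opposite strand. It also has copies named as pseudogenes, of which RefSeq lists *Tdg-ps* as protein-coding. Pseudogenes are also annotated for *Dnmt3l*, *Dnmt3a* and *Dnmt3b*. Reads without a unique alignment are in a summary row apart from the genes, with 35.6% to 40.4% of all rows' counts. How many of them came from these 4 genes is not known, so the counts of the 4 genes are uncertain to that extent. Copies were searched by name only, so copies under other names, such as *Dnmt3c* of *Dnmt3b*, were not covered.

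**Figure D4:**
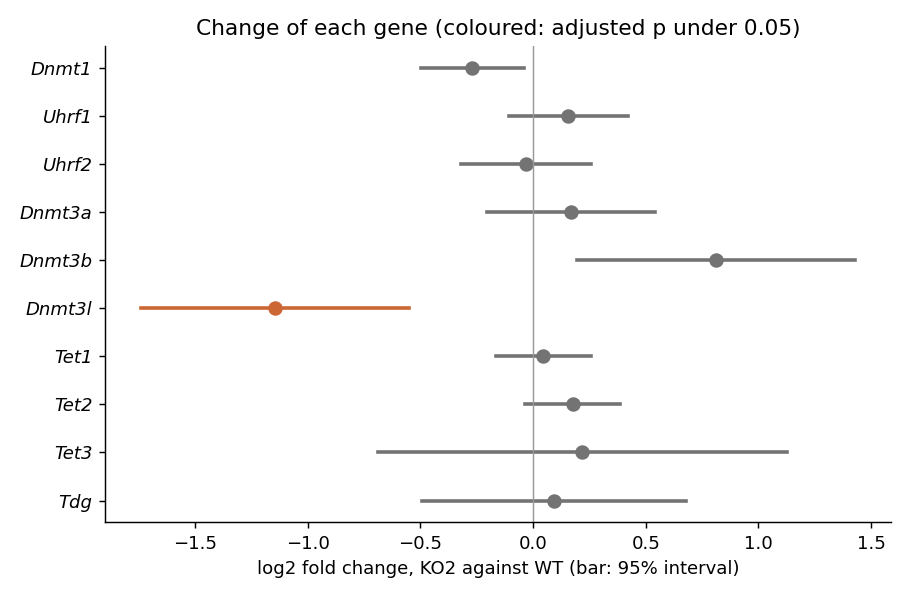
Log2 fold change of KO2 against WT for each of the 10 genes with its 95% interval (edgeR, not adjusted for the number of genes). *Dnmt3l*, coloured, is the gene with an adjusted p under 0.05, at -1.15, and *Dnmt3b* has the highest estimate, at 0.81.

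Further genes of the pathway were taken from lists by role. Of 60 tested genes in these lists, *Cdca7* alone passed the test, beside 5.64% of all tested genes. Among 7 partners of replication-coupled maintenance, *Cdca7*, which recruits the remodeller HELLS and is mutated in a human immunodeficiency with loss of methylation, had 127 and 126 CPM in WT and 99.9 and 78.1 CPM in KO2. It was lower in KO2, with a log2 fold change of -0.51 ± 0.14 SE (edgeR adjusted p = 0.0452), and 8 of the 13 alternatives did not keep the call, with adjusted p of 0.0538 to 0.903. *Hells* itself had 979 and 952 CPM in WT and 751 and 821 CPM in KO2 (log2 fold change -0.30, adjusted p = 0.0952, edgeR), and passed with DESeq2 (adjusted p = 0.0405). *Pclaf*, which binds PCNA and UHRF1, had higher values in KO2 (log2 fold change 0.43, adjusted p = 0.103, edgeR). The median of the list was -0.23, beside 0.01 for all tested genes.

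Factors that direct or limit methylation showed no call among 13 tested genes, with a median log2 fold change of 0.14. Of these, *Setdb1*, a histone methyltransferase that works with *Trim28* at silenced repeats, had the smallest adjusted p, 0.2, at a log2 fold change of 0.27. *Dppa3* and *Prdm14*, known for keeping methylation low in naive ESCs, had log2 fold changes of 0.14 and 0.21 (adjusted p = 0.77 and 0.497, edgeR). For 8 of the 13 genes both KO2 libraries lay above both WT libraries, which held for 25.4% of all tested genes. None of the 10 readers of methylated CpG and their relatives passed either (median -0.13), with the smallest adjusted p for *Zbtb33*, the reader Kaiso, at 0.178 and a log2 fold change of -0.63.

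None of the 14 base excision and *Gadd45* genes passed (median 0.03). *Neil3* and *Neil2*, glycosylases of oxidised bases, had log2 fold changes of 1.20 and -1.39 in opposite directions (adjusted p = 0.0792 and 0.132, edgeR), each from at most 33 counts in a WT library. *Parp1* was at 740 and 713 CPM in WT and 590 and 597 CPM in KO2 (log2 fold change -0.29, adjusted p = 0.0997, edgeR), and passed with DESeq2 (adjusted p = 0.0452). Of the TET cofactor genes, 9 of 10 were tested and none passed (median -0.07), among them *Idh1* at -0.28 and *Slc23a2*, a vitamin C transporter, at -0.37 (adjusted p = 0.176 and 0.0997, edgeR). None of the 6 genes of methyl donor supply passed (median -0.18), with *Mat2b* at -0.33 (adjusted p = 0.169, edgeR) and *Ahcy* at -0.42 (adjusted p = 0.28, edgeR). *Trdmt1*, which methylates transfer RNA and not DNA, was at 0.75 (adjusted p = 0.244, edgeR). *Dnmt3c*, a rodent-specific copy of *Dnmt3b* that acts in the male germline, had 0 counts in every library, which allows up to 1.12 and 0.709 CPM in WT and 0.38 and 0.401 CPM in KO2 as far as counting error goes.

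Genes whose promoters are known to be silenced by methylation were set beside the enzymes. Of 16 such germline genes 14 were tested, and 7 of them were lower in KO2 and none higher, against 3.04% lower among all tested genes. The median log2 fold change was -0.79. *Dazl*, an RNA-binding protein of germ cells, fell from 597 and 643 CPM in WT to 130.1 and 143 CPM in KO2 (log2 fold change -2.19, adjusted p = 3.36e-10, edgeR), and *Sycp3*, of the synaptonemal complex, from 41.0 and 32.4 to 9.26 and 11.1 CPM (-1.83, adjusted p = 0.000207, edgeR). The other 5 were *Taf7l*, *Mov10l1*, *Stk31*, *Hormad1* and *Tex19.1*, at -3.19 to -0.65. *Brdt*, *Asz1* and *Mael* had estimates above 0, of 2.72, 1.15 and 0.74 from at most 68 counts in a library, and did not pass (adjusted p = 0.122, 0.245 and 0.725, edgeR). The list was written with earlier results of these data known, among them the lower values of *Dazl* and *Stk31*. The count is therefore a description and no independent evidence. Without the filter on low counts 2 genes were called, *Dazl* and *Stk31*, with spike-in scaling 4, and without WT replicate 1 3, namely these and *Sycp3*. *Tex19.1* lost its call in 8 alternatives, with adjusted p of 0.0581 to 0.718 (edgeR and DESeq2). The summed level of the 16 genes was 1054 and 1072 CPM in WT and 352 and 385 CPM in KO2, beside the ESC and Y-linked marker values above, and a part of the clone or of cell type in these differences was not tested.

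**Figure D5:**
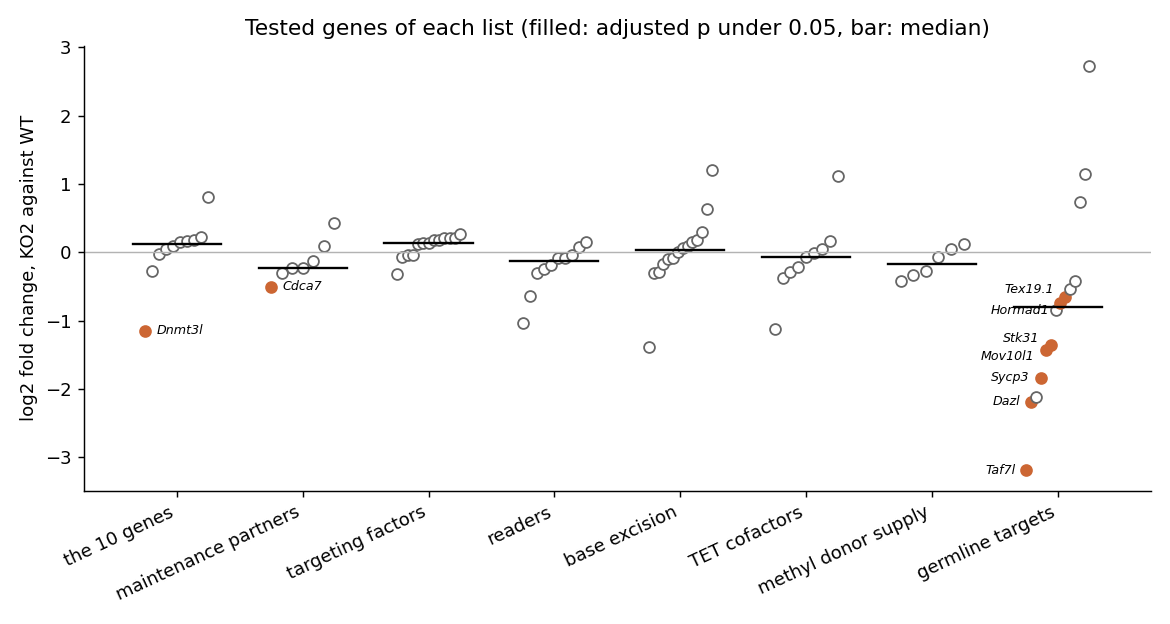
Log2 fold change of KO2 against WT for the tested genes of each list (circles), filled and named where the adjusted p was under 0.05, with a line at the median of the list. Filled points below 0 are 1 of the 10 genes, 1 of the maintenance partners and 7 of the germline targets, and no list holds a filled point above 0.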

How the data were processed

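RNA was isolated in duplicate, ribosomal RNA was depleted and strand-specific libraries were made. Reads were mapped by the authors with HISAT2 (mm9), and raw counts per gene from HTSeq were deposited for each replicate. Tool versions, annotation and options of the counting step are not given in the sources used here. HTSeq summary rows (52.9% to 58.8% of all rows' counts) and 92 ERCC spike-in rows were left out of library sizes. Symbols and mm9 positions came from an NCBIM37 annotation that held 32782 of 48526 identifiers. The list markers *Sox1*, *Tcstv1* and *Tcstv3* had no match.

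Counts were normalized with TMM (factors 0.952 to 1.06), genes were kept by filterByExpr (minimum count 10, minimum total 15) and 12883 genes were tested with edgeR 4.0.16 (glmQLFit with legacy=FALSE, glmQLFTest, R 4.3.3) with condition as the only term. Adjusted p-values (Benjamini-Hochberg) under 0.05 were called. Fits were tested on simulated data. Standard errors are the log2 fold change over the square root of F. A count of 3 corresponds to 0.38 to 1.12 CPM. Replicates differed by more than sampling noise (chi-square per gene 5.92 in WT and 21.3 in KO2). They are labelled as biological replicates, and whether they were separate cultures is not stated, so p-values measure the spread between these samples only.

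The 10 genes and all lists were chosen with earlier results of these data known. Named were the 10 genes, listed genes that passed, up to 4 genes of each list with the smallest adjusted p, the 5 profiles nearest to *Dnmt3l* (log2 of CPM + 0.5) and, chosen after their values were seen, its called neighbours, *Dppa3*, *Prdm14*, *Brdt*, *Asz1* and *Mael*. Alternatives were RLE normalization, no or a stricter filter, DESeq2 1.42.0, the older quasi-likelihood method, a replicate block, ERCC scaling, removal of Y-linked and mitochondrial genes, thinning and leaving out each replicate.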

Additional observations from a re-analysis of the deposited data

How the results depend on the processing

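The number of genes called over all tested genes was 727 (336 higher and 391 lower in KO2). It was 61 without the filter on low counts (29 higher, 32 lower, 25397 genes tested), 454 with DESeq2 (189 higher) and 163 with spike-in scaling (90 higher, 73 lower). Leaving out each replicate in turn gave 270 to 691 genes, 122 to 341 higher and 148 to 350 lower, the fewest without WT replicate 1. Of the 10 genes, 1 was called in the main comparison and 0 without the filter, with DESeq2, with spike-in scaling and after thinning, so that 0 were then lower. *Dnmt3l* had adjusted p of 0.293, 0.066, 0.133 and 0.0796 in these. Leaving out replicates gave 0 to 2 of the 10 genes, 0 to 1 higher and 0 to 1 lower. Samples of the same number did not deviate together (correlation -0.0095 over genes), which cannot show whether they were handled together. With the replicate block, 950 genes and 2 of the 10 genes were called, with 1 higher, *Dnmt3b* (log2 fold change 0.85, adjusted p = 0.0186, edgeR), and *Dnmt3l* lower. The differences of the ratios of *Dnmt3l* to *Dnmt3a* and *Dnmt3b* were by construction the same when same-numbered libraries were paired (-1.29 and -1.99) and ranged from -1.55 to -1.03 and -2.97 to -0.9995 when replicates were left out. Of the pathway and germline genes, 8 were called, all lower, and 2 without the filter, 4 with spike-in scaling and 3 to 7 without a replicate. Estimates near 0 changed sign without a call: *Uhrf2* was at 0.045 with spike-in scaling, and leaving out replicates gave -0.024 to 0.37 for *Uhrf1*, -0.10 to 0.054 for *Uhrf2* (0.02 without KO2 replicate 2), -0.0096 to 0.098 for *Tet1*, -0.41 to 0.64 for *Tet3*, -0.065 to 0.25 for *Tdg* (-0.06 without KO2 replicate 2) and -0.058 to 0.27 for *Mtrr*. Without the filter the median of all genes was 0.12, against 0.01. The cause of these shifts was not tested. Of 550 values of 43 other named genes under alternatives, 497 kept direction and side of the threshold. The widest standard errors of the 10 genes were those of *Tet3* (0.43), *Dnmt3b* (0.29), *Dnmt3l* (0.28) and *Tdg* (0.28), and after thinning they were 0.44, 0.36, 0.30 and 0.30.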
